A study of Homo sapiens with 8 samples.

Results

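The retinoblastoma (RB) pocket proteins, the E2F transcription factors and their DP partners were described through 10 transcripts: RB1, RBL1 and RBL2 (pocket proteins), E2F1 and E2F3 (activator E2Fs), E2F4 (a repressor E2F that binds pocket proteins), E2F7 and E2F8 (atypical repressor E2Fs), and TFDP1 and TFDP2 (DP partners). They were chosen by gene symbol, and all 10 were present among the 12939 genes measured in each library. RNA-Seq was done on CSCs, the cancer stem cell subset of MDA-MB-231, a triple-negative breast cancer cell line with mesenchymal features. All cells carried GFP driven by the Oct4a regulatory region and an RFP plasmid for shRNA, and the cells brightest for both GFP and RFP were sorted and left overnight before RNA was isolated. The groups were scramble shRNA (n = 3), CDH2 shRNA against N-cadherin (n = 3) and Cx43 shRNA against the gap junction protein connexin 43 (n = 2), all in stable transfectants of the same parent line. For CDH2 shRNA the authors selected the clone they call B for its knockdown. The paper names a stable line for each group, so line and shRNA cannot be told apart in any comparison. CDH2 and GJA1, the gene of Cx43, were not analysed here, and no check of the knockdown on the targeted transcripts was made.

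Pocket proteins bind E2F factors and recruit chromatin-modifying corepressors to genes for DNA replication and mitosis. Cyclin D-CDK4/6 and cyclin E-CDK2 phosphorylate the pocket proteins, which frees E2F1 to E2F3 to activate these genes as cells enter S phase, whereas in resting cells p107 (RBL1) and p130 (RBL2) hold E2F4 in the repressive DREAM complex. E2F1 to E2F6 bind DNA with a DP partner, and E2F7 and E2F8 bind without DP or pocket proteins and lower E2F target transcription late in S phase.

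Several of these genes are themselves E2F targets by textbook knowledge, and the sequences just upstream of 3 of them are shown because they hold E2F-like words. The 250 bases before the RefSeq start (GRCh38.p14) were searched on both strands for TTTCCCGC, TTTGGCGC, TTTCGCGC and TTTGCCGC. Of 35116 such windows of all genes, 979 (2.79%) held at least 1 of these words. Windows were found for 9 of the 10 members, and RBL1 and E2F1 held 2 words each, while E2F3 and TFDP1 held 1 each. The words are in capitals, written 5′ to 3′ on the gene's strand, so that a word on the other strand appears as its reverse complement. The windows lie at chr20:37095998-37096247 on the minus strand for RBL1, chr20:33686386-33686635 on the minus strand for E2F1 and chr6:20401629-20401878 on the plus strand for E2F3.
RBL1: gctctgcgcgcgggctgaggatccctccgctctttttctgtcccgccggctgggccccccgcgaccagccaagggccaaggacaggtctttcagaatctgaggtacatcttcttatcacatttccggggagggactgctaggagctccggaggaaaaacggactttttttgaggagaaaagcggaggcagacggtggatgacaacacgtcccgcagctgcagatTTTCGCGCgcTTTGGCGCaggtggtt
E2F1: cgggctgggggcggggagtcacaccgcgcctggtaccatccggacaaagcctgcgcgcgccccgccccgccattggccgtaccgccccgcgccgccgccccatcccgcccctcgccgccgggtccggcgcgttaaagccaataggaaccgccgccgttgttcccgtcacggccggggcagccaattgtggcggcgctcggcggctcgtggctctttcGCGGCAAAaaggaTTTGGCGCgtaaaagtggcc
E2F3: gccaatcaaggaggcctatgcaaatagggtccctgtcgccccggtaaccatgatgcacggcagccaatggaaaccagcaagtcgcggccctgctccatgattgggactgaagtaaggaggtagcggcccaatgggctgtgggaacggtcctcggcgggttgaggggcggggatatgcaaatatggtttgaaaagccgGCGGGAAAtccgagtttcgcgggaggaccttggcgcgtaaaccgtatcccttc
The RBL1 words began 26 and 16 bases before the start, those of E2F1 33 and 20 bases before it, and that of E2F3 53 bases before it. For TFDP1 the word began 120 bases before the start. The shorter core TTCCCGC, which is part of TTTCCCGC, was in 5.52% of all windows and, among the members, in E2F3. The windows of E2F4, E2F7, RBL2 and TFDP2 did not hold these letters, and E2F8 is named only. The RefSeq start of RB1 lies 172706 bases inside the gene, so its window was not read as its promoter. For TFDP2, starts also lie 120364 and 120918 bases inside the gene. A match of letters is not a binding site, and no binding was measured.

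In the scramble libraries the 10 transcripts spanned a wide range of levels. Per kilobase of GENCODE v44 exon (CPM per kb), E2F1 was highest with 30.1 ± 4.37 (SD, n = 3). E2F4 (21.5 ± 2.35) and TFDP1 (21.1 ± 0.923) came next, and their ranges overlapped. RB1 (6.82 ± 0.793) and RBL1 (6.33 ± 0.653) also overlapped. Below them followed E2F3 (5.04 ± 0.297), E2F7 (3.39 ± 0.0259) and TFDP2 (2.81 ± 0.0157), with no overlap between neighbours. E2F8 (1.77 ± 0.107) and RBL2 (1.74 ± 0.474) were lowest and overlapped. Thus per kb of exon, the activator E2F1 was more abundant in scramble than any repressor E2F. The atypical repressors E2F7 and E2F8 were among the less abundant members. Without division by length, E2F1 (80.9 ± 11.8 CPM) and E2F4 (77.3 ± 8.47 CPM) were close in scramble. E2F4 had the higher mean CPM with CDH2 shRNA (86.6 against 69.4) and with Cx43 shRNA (92.9 against 76.3). With either shRNA the order differed at its top, where TFDP1 ranked first, at 27.0 ± 1.16 with CDH2 shRNA (n = 3) and 32.2 ± 0.0921 with Cx43 shRNA (n = 2), against E2F1 at 25.8 ± 3.31 and 28.3 ± 3.40. The ranges of TFDP1 and E2F1 overlapped with CDH2 shRNA and did not overlap with Cx43 shRNA.

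**Figure D1:**
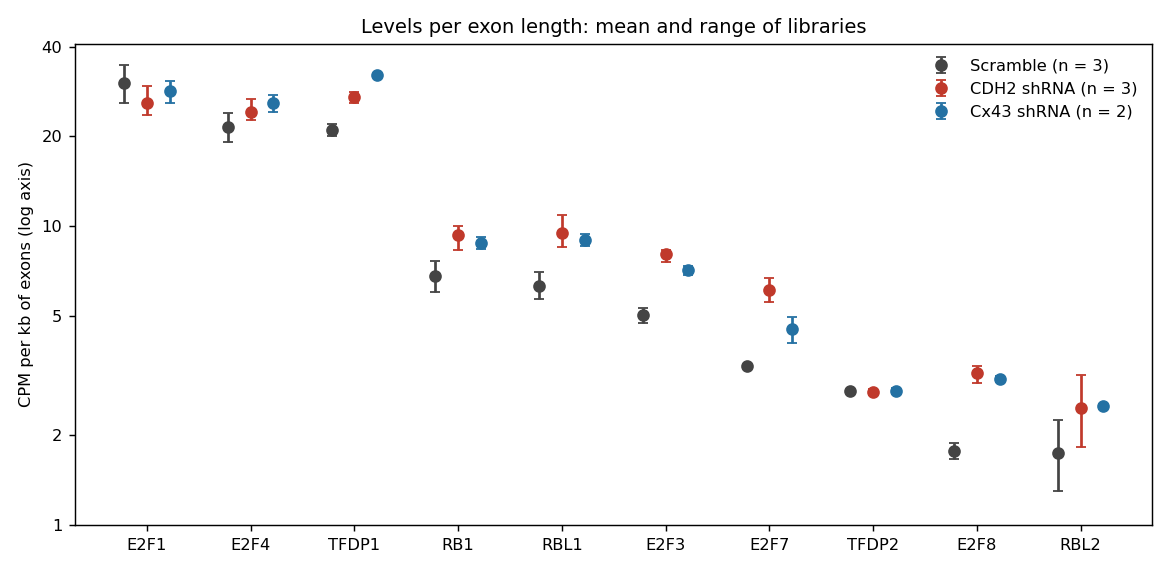
Level of each transcript in CPM per kb of exon (log axis) for scramble, CDH2 shRNA and Cx43 shRNA; points are means and bars the range of the libraries. E2F1, E2F4 and TFDP1 lie between 19.2 and 34.6 CPM per kb in every group, and E2F8 and RBL2 reach at most 3.42 CPM per kb.

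The question for each knockdown was whether the transcripts of the RB-E2F axis differed from those of scramble CSCs. With CDH2 shRNA, 5 of the 10 members rose and none fell: E2F7, E2F8, E2F3, RBL1 and TFDP1 (limma, adjusted p under 0.05). Among all 12939 genes tested, 14.3% were past this threshold, 7.29% higher and 6.98% lower. The median log2 fold change of the members was 0.46, against 0.0070 for all genes. With Cx43 shRNA the median was 0.44, against 0.043 for all genes, but no member was past the threshold, which 1.21% of all genes passed (1.18% with the fold threshold of the methods as well). At an unadjusted p under 0.05, 5 members and 21.6% of all genes were counted with Cx43 shRNA. The 2 comparisons share the scramble libraries, and are not independent. Values below are log2(CPM + 1) unless stated, and differences are on that scale. Folds are thus those of CPM + 1, which lie closer to no change than folds of CPM where levels are low. Standard errors (SE) and adjusted p-values come from a limma fit of all 8 libraries with the group and the replicate number. Some adjusted p-values are also given from a fit without the replicate number (without the block). The authors had already removed a batch effect among replicates, and after groups and replicate numbers the values vary in only 2 directions. The fit with the block counts 3 residual degrees of freedom and the fit without it 5, so the p-values of both are too small. With the residual degrees of freedom cut to 2, E2F3, E2F7 and E2F8 kept their calls with CDH2 shRNA. RBL1 and TFDP1 lost theirs. The labels give replicate numbers but no separate cultures, so p-values measure the spread between these libraries, which may be technical. In bulk RNA, fewer cells that express a gene and less RNA per cell cannot be told apart.

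**Figure D2:**
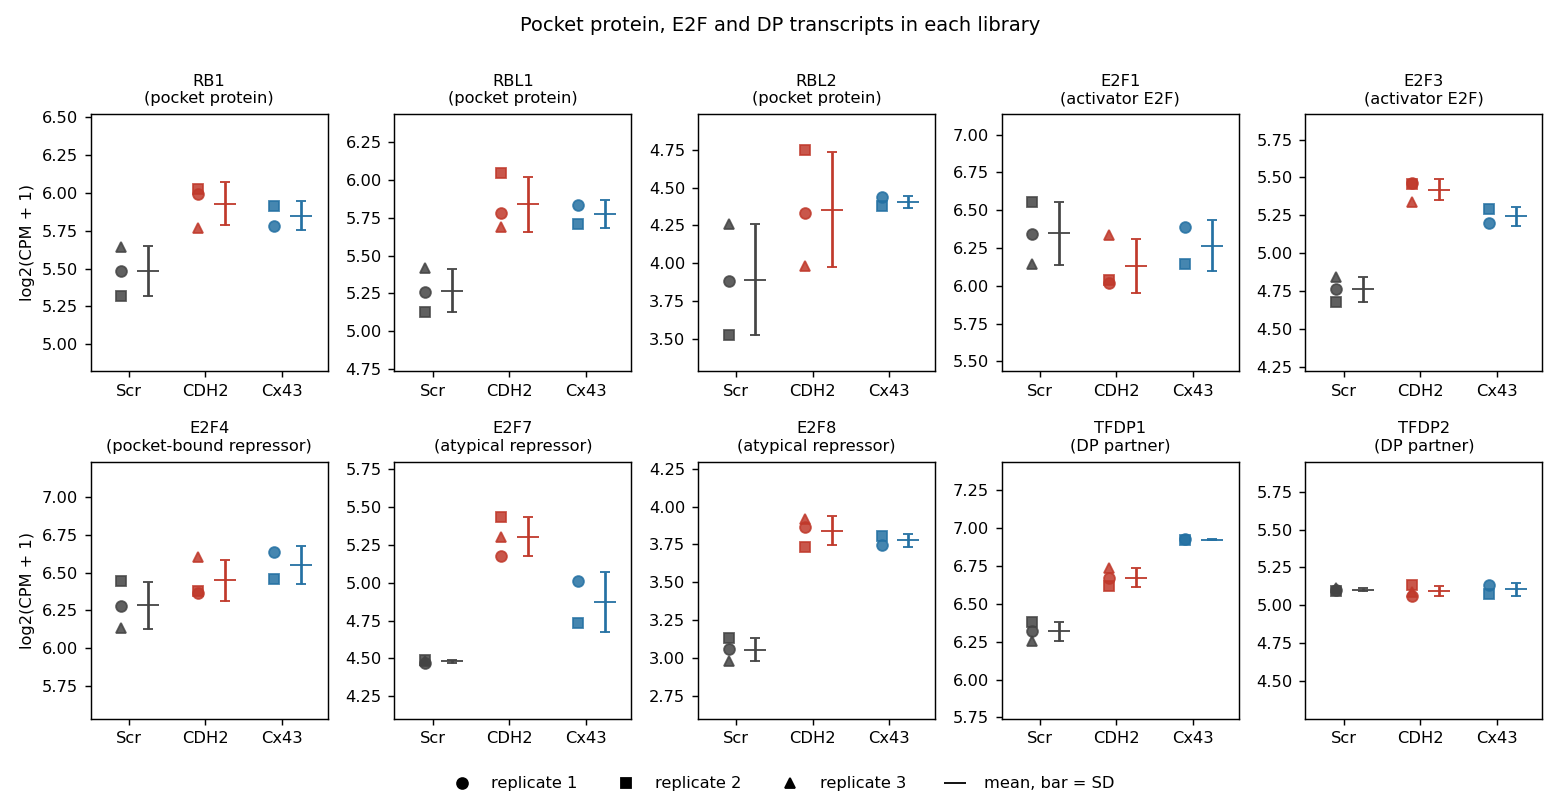
log2(CPM + 1) of the 10 transcripts in each library (y axis, the same span in every panel) for scramble (Scr), CDH2 shRNA and Cx43 shRNA; symbols give the replicate number, horizontal lines the group mean and bars the SD. E2F3, E2F7, E2F8, TFDP1, RB1 and RBL1 lie above every scramble library in every knockdown library, and TFDP2 is level.

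The atypical repressors showed the largest differences among the members with CDH2 shRNA. E2F7 was 4.47, 4.49 and 4.48 in the scramble libraries, 5.17, 5.43 and 5.30 with CDH2 shRNA, and 5.01 and 4.74 with Cx43 shRNA, each list in the order of the replicate numbers. All 5 knockdown libraries lay above the scramble libraries, and all 3 CDH2 shRNA libraries above both Cx43 shRNA libraries. The difference from scramble was 0.82 (SE 0.11, adjusted p = 0.0209), a 1.77-fold rise, with CDH2 shRNA, and 0.39 (SE 0.13, adjusted p = 0.180) with Cx43 shRNA. E2F8, the closest relative of E2F7, was 3.06, 3.13 and 2.98 with scramble, 3.87, 3.74 and 3.92 with CDH2 shRNA, and 3.75 and 3.81 with Cx43 shRNA. Here the knockdown groups overlapped each other, and neither overlapped scramble. The difference was 0.79 (SE 0.09, adjusted p = 0.0197), a 1.72-fold rise in CPM + 1, with CDH2 shRNA and 0.72 (SE 0.11, adjusted p = 0.0507) with Cx43 shRNA. In mean CPM, E2F8 was 7.32 with scramble and 13.3 with CDH2 shRNA. E2F7 and E2F8 were the only members that also passed the fold threshold of the study's methods with CDH2 shRNA, which 2.06% of all genes did. E2F7 spans chr12:77021248-77065569 and E2F8 chr11:19224063-19241620, both on the minus strand (hg38).

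The activator E2Fs did not move together. E2F3 was 4.76, 4.68 and 4.84 with scramble, 5.46, 5.46 and 5.34 with CDH2 shRNA, and 5.20 and 5.29 with Cx43 shRNA, and no groups overlapped. It rose with CDH2 shRNA by 0.66 (SE 0.09, adjusted p = 0.0209, 1.58-fold). With Cx43 shRNA its difference was 0.48 (SE 0.10, adjusted p = 0.0913). E2F1, the best known activator and also an inducer of apoptosis, was 6.34, 6.56 and 6.14 with scramble, 6.02, 6.04 and 6.33 with CDH2 shRNA, and 6.39 and 6.15 with Cx43 shRNA. The 3 groups overlapped. Its difference from scramble was -0.22 (SE 0.16, 95% interval -0.61 to 0.17, adjusted p = 0.356) with CDH2 shRNA and -0.080 (SE 0.19, interval -0.54 to 0.38, adjusted p = 0.833) with Cx43 shRNA. Both intervals hold 0. E2F3 spans chr6:20401879-20493714 on the plus strand and E2F1 chr20:33675477-33686385 on the minus strand. E2F3 has the pseudogenes E2F3P1 and E2F3P2, with which its reads may be shared.

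E2F4, the repressor that works through pocket proteins, was 6.28, 6.44 and 6.13 with scramble, 6.36, 6.38 and 6.60 with CDH2 shRNA, and 6.64 and 6.46 with Cx43 shRNA. The CDH2 shRNA libraries overlapped scramble, and the Cx43 shRNA libraries were just above it. Its difference was 0.16 (SE 0.13, adjusted p = 0.382) with CDH2 shRNA and 0.27 (SE 0.15, adjusted p = 0.359) with Cx43 shRNA. E2F4 (chr16:67192155-67198918, plus strand) has the pseudogene E2F4P1. So of the 3 repressor E2Fs among the members, the atypical E2F7 and E2F8 rose with CDH2 shRNA and E2F4 did not pass the test. As a description over the members and with no test, the mean log2 level of E2F7 and E2F8 minus that of E2F1 and E2F3 was -1.79, -1.81 and -1.76 with scramble. It was -1.22, -1.17 and -1.22 with CDH2 shRNA, and -1.41 and -1.45 with Cx43 shRNA, so that the 3 groups took separate ranges. This score reuses the values given above and averages E2F1 and E2F3, which did not move together. E2F4 and E2F2 were not part of it, and how often other sets of genes separate in this way was not counted.

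Each pocket protein transcript had a higher mean in both knockdowns than in scramble, and RBL1 alone passed the test, with CDH2 shRNA. RBL1, which encodes p107, was 5.26, 5.13 and 5.42 with scramble, 5.78, 6.04 and 5.69 with CDH2 shRNA, and 5.84 and 5.71 with Cx43 shRNA. Both knockdowns lay above scramble and overlapped each other. RBL1 rose by 0.57 (SE 0.14, adjusted p = 0.0468, 1.48-fold) with CDH2 shRNA, and its difference was 0.50 (SE 0.16, adjusted p = 0.157) with Cx43 shRNA. RB1, the retinoblastoma tumor suppressor, was 5.49, 5.32 and 5.65 with scramble, 5.99, 6.03 and 5.77 with CDH2 shRNA, and 5.78 and 5.92 with Cx43 shRNA. Scramble replicate 3 was the highest of its group and lay 0.12 below CDH2 shRNA replicate 3. The difference of RB1 was 0.45 (SE 0.13, adjusted p = 0.0680; 0.0139 without the replicate number in the fit) with CDH2 shRNA and 0.37 (SE 0.15, adjusted p = 0.236) with Cx43 shRNA. RBL2, which encodes p130, the pocket protein of resting cells, was 3.88, 3.53 and 4.26 with scramble, 4.33, 4.75 and 3.98 with CDH2 shRNA, and 4.44 and 4.38 with Cx43 shRNA. It was the most variable member, and scramble and CDH2 shRNA overlapped. Its difference was 0.46 (SE 0.26, adjusted p = 0.246) and 0.52 (SE 0.31, adjusted p = 0.385). RB1 spans chr13:48303744-48599436 (plus strand), RBL1 chr20:36996349-37095997 (minus strand) and RBL2 chr16:53433977-53491648 (plus strand). Exons of RBL2 overlap those of AKTIP on the opposite strand over 609 bases, and whether reads were counted by strand is not given in the sources used here.

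Of the DP partners, TFDP1 differed from scramble and TFDP2 was level. TFDP1, which encodes DP1, was 6.32, 6.38 and 6.26 with scramble, 6.67, 6.62 and 6.74 with CDH2 shRNA, and 6.93 and 6.92 with Cx43 shRNA. No groups overlapped, and here the Cx43 shRNA libraries were the highest. TFDP1 rose by 0.36 (SE 0.08, adjusted p = 0.0433, 1.28-fold) with CDH2 shRNA, and its difference was 0.61 (SE 0.10, adjusted p = 0.0532, 1.52-fold) with Cx43 shRNA. TFDP2, which encodes DP2, lay between 5.06 and 5.14 in all 8 libraries. Its difference was -0.010 (SE 0.07, 95% interval -0.19 to 0.17, adjusted p = 0.934) with CDH2 shRNA and 0.0012 (SE 0.09, interval -0.21 to 0.21, adjusted p = 0.996) with Cx43 shRNA. TFDP1 spans chr13:113584721-113641473 (plus strand) and has the pseudogenes TFDP1P1, TFDP1P2 and TFDP1P3, and TFDP2 spans chr3:141944428-142149544 (minus strand).

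**Figure D3:**
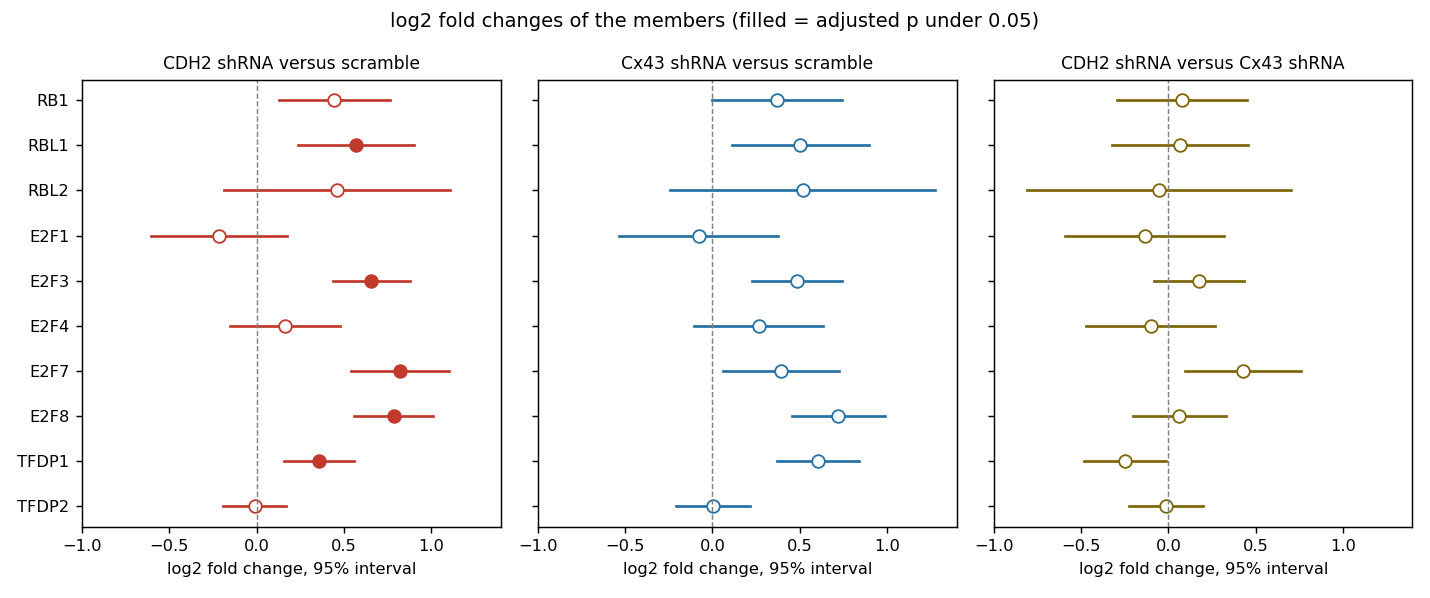
log2 fold change of each transcript (x axis) with its 95% interval for CDH2 shRNA versus scramble, Cx43 shRNA versus scramble and CDH2 shRNA versus Cx43 shRNA; filled points have an adjusted p under 0.05. The 5 filled points are RBL1, E2F3, E2F7, E2F8 and TFDP1 with CDH2 shRNA, all to the right of 0.

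Library by library, against the scramble library of equal replicate number, 6 members were higher in all 3 CDH2 shRNA replicates: RB1, RBL1, E2F3, E2F7, E2F8 and TFDP1. The differences were 0.70 to 0.94 for E2F7, 0.61 to 0.94 for E2F8 and 0.50 to 0.78 for E2F3. Those of RB1 ran from 0.12 to 0.71 and those of RBL1 from 0.27 to 0.92, lowest in replicate 3 in both. RBL2 ran from -0.28 in replicate 3 to 1.22 in replicate 2, and E2F1 from -0.52 in replicate 2 to 0.19 in replicate 3. In the values as given, deviations from the group means sum to at most 1e-04 within each replicate number. Replicate 3 holds only CDH2 shRNA and scramble, so there their deviations mirror each other. The spread of these differences is thus not that of separately measured pairs. With Cx43 shRNA, 8 members were higher in both replicates, all but E2F1 and TFDP2. The share of all genes higher in every such pair was not counted. The same 6 members had CDH2 shRNA libraries all above scramble, as did 27.1% of all genes. With Cx43 shRNA, 8 members had both libraries above scramble, as did 31.4% of all genes.

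The calls depended on the fit. Without the replicate number as a block, 6 members were called with CDH2 shRNA, RB1 being added, beside 43.3% of all genes, and 5 with Cx43 shRNA, beside 24.3%. These 5 were RBL1, E2F3, E2F7, E2F8 and TFDP1, with adjusted p from 0.0011 to 0.0301. As stated above, the fits with and without the block both count too many residual degrees of freedom, so their p-values are too small. All 5 calls with CDH2 shRNA were lost on leaving out CDH2 shRNA replicate 1 or 2, Cx43 shRNA replicate 1 or 2, or scramble replicate 1, or on fitting only CDH2 shRNA and scramble. These fits called 0 of all 12939 genes, except that without scramble replicate 1, which called 10 (0.0773%), so the loss was not particular to the members. Without scramble replicate 2, E2F3, E2F7 and E2F8 were called with CDH2 shRNA, beside 12.1% of all genes, and E2F8 and TFDP1 with Cx43 shRNA, beside 3.62%. Without CDH2 shRNA replicate 3 or scramble replicate 3, which give the same fit, 41% of all genes were called with CDH2 shRNA. RB1 (0.61, adjusted p = 0.0024) and RBL2 (0.83, adjusted p = 0.0018) were then called higher, E2F1 was called lower (-0.42, adjusted p = 0.0213), and TFDP1 was not called. RBL2 was 0.15 without CDH2 shRNA replicate 2 and 0.17 without scramble replicate 2, and E2F1 was -0.048 without scramble replicate 2. In that same fit without a replicate 3 library, 16.5% of all genes and 6 members were called with Cx43 shRNA: RB1, RBL1, RBL2, E2F3, E2F8 and TFDP1. The log2 fold changes themselves stayed between 0.72 and 0.93 for E2F7, 0.71 and 0.87 for E2F8, 0.59 and 0.74 for E2F3, 0.40 and 0.72 for RBL1, and 0.29 and 0.41 for TFDP1 when any library was left out. With the residual degrees of freedom cut from 3 to 2, the number of directions in which the values varied, E2F3, E2F7 and E2F8 kept their calls with CDH2 shRNA, and RBL1 and TFDP1 lost theirs, while the share of all genes called went from 14.3% to 2.29%. RBL1 also lost its call with a pseudocount of 0.1.

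CDH2 shRNA and Cx43 shRNA were then compared directly. No member was past the threshold, nor was any of the 12939 genes (0%). The ranges of E2F3 and E2F7 lay higher with CDH2 shRNA without overlap, as for 21.8% of all genes, and that of TFDP1 lower, as for 29.1%. At an unadjusted p under 0.05 there were 2591 genes (20%) and 2 members, E2F7 and TFDP1. E2F7 was higher with CDH2 shRNA by 0.43 (SE 0.13, 95% interval 0.097 to 0.76, adjusted p = 0.182; 0.0255 without the block). TFDP1 was lower with CDH2 shRNA, with a difference of -0.25 (SE 0.10, interval -0.49 to -0.015, adjusted p = 0.231; 0.0258 without the block). Without the block 2784 genes (21.5%) and these 2 members were called. E2F3 differed by 0.17 (interval -0.084 to 0.43) and E2F8 by 0.064 (interval -0.20 to 0.33). For RB1 the difference was 0.079 (interval -0.29 to 0.45), for RBL1 0.066 (interval -0.33 to 0.46) and for RBL2 -0.053 (interval -0.81 to 0.71). The difference was -0.14 (interval -0.59 to 0.32) for E2F1, -0.10 (interval -0.47 to 0.27) for E2F4 and -0.011 (interval -0.22 to 0.20) for TFDP2. These intervals are wide beside most of the differences from scramble, so that equal levels in the knockdowns are not shown.

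The genes around the RB-E2F axis were counted in the same fit. Among the cyclins and kinases that act on pocket proteins, CCNE2, which encodes cyclin E2, rose in both knockdowns. It was 3.96, 4.01 and 3.91 with scramble, 4.81, 4.85 and 4.90 with CDH2 shRNA, and 4.83 and 4.73 with Cx43 shRNA. The rise was 0.90 (SE 0.08, adjusted p = 0.0160) and 0.82 (SE 0.10, adjusted p = 0.0354). CCND2, which encodes cyclin D2, was 5.28, 5.37 and 5.22 with scramble and 5.10, 5.32 and 5.31 with CDH2 shRNA, against 6.76 and 6.45 with Cx43 shRNA. It rose by 1.32 (SE 0.14, adjusted p = 0.0349) with Cx43 shRNA, and its difference with CDH2 shRNA was -0.043 (adjusted p = 0.820). The calls of CCNE2 and CCND2 depended on the fit. Without CDH2 shRNA replicate 2, 0 of all 12939 genes were called in either knockdown. Without scramble replicate 1, 1 gene was called with Cx43 shRNA. Among the 75% of genes with the highest means 4 were called with Cx43 shRNA, 1 of them higher. Directly compared, CCND2 differed between the knockdowns by -1.36 (SE 0.14, adjusted p = 0.115; 0.0018 without the block). The other 8 genes of this list of 9 with CDH2 shRNA, and the other 7 with Cx43 shRNA, did not pass the test, among them CCNA2 (0.42, adjusted p = 0.0538, and 0.56, adjusted p = 0.0932). None of the 5 CDK inhibitors in the files passed the test in either knockdown. The lowest adjusted p with CDH2 shRNA was that of CDKN1C (p57), at -0.71 (SE 0.19, adjusted p = 0.0603), and with Cx43 shRNA that of CDKN2C (p18), at 0.44 (SE 0.09, adjusted p = 0.0890). CDKN2A and CDKN2B, which encode other CDK4/6 inhibitors, were not analysed here.

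No gene of the remaining E2F family or of the list of DREAM and MuvB genes passed the test in the fit with the block. Without the block, 2 of 3 other E2F genes and 5 of 9 genes of that list were called with CDH2 shRNA, beside 43.3% of all genes. With Cx43 shRNA 3 of 3 and 3 of 9 were called, beside 24.3%, all higher. E2F2, E2F5 and E2F6 had differences of 0.17, 0.31 and 0.22 with CDH2 shRNA and 0.46, 0.46 and 0.22 with Cx43 shRNA, with adjusted p from 0.0861 to 0.300. The list of 9 holds the MuvB core, which LIN9, LIN37, LIN52, LIN54 and RBBP4 form. It also holds DYRK1A, MYBL1, MYBL2 and FOXM1, which are not subunits of that core. None of the 9 was called, and their median over the whole mixed list was 0.17 with CDH2 shRNA and 0.11 with Cx43 shRNA. LIN54, the DNA-binding subunit, differed by 0.35 (adjusted p = 0.0694) with CDH2 shRNA, and LIN9 by 0.39 (adjusted p = 0.0884) with Cx43 shRNA. Of 15 corepressors bound by RB, 2 rose with CDH2 shRNA: DNMT1, the maintenance DNA methyltransferase (0.53, SE 0.11, adjusted p = 0.0354), and RBBP8, a DNA end resection factor also called CtIP (0.42, SE 0.09, adjusted p = 0.0386). DNMT1 is itself an E2F target. The count of 2 in 15 is close to the 14.3% of all genes called. None of the 15 was called with Cx43 shRNA. Without the block 5 were called with CDH2 shRNA, 3 higher and 2 lower, and 3 with Cx43 shRNA, 2 higher and 1 lower.

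Of 34 E2F target genes of S phase, 12 rose with CDH2 shRNA and none fell, against 7.29% and 6.98% of all genes. Their median was 0.30. Among those with the smallest adjusted p were POLA1, the catalytic subunit of DNA polymerase alpha (0.78, SE 0.11, adjusted p = 0.0209), GINS1 of the replicative helicase (0.44, SE 0.07, adjusted p = 0.0254) and BRCA1 (0.57, SE 0.10, adjusted p = 0.0272). Of 25 DREAM target genes of G2 and mitosis, 7 rose and none fell, with a median of 0.32. The 4 with the smallest adjusted p were the checkpoint kinase gene BUB1B (0.55, SE 0.08, adjusted p = 0.0224), the kinesin KIF11 (0.46, SE 0.07, adjusted p = 0.0225), TTK (0.45, SE 0.07, adjusted p = 0.0248) and BUB1 (0.48, SE 0.08, adjusted p = 0.0253). With Cx43 shRNA the medians were 0.30 and 0.26, and none of either list was called, while 18 and 9 genes were called without the block (with CDH2 shRNA, 18 and 13), beside 24.3% of all genes with Cx43 shRNA and 43.3% with CDH2 shRNA. The counts with CDH2 shRNA also dropped to 0 on leaving out the same 5 libraries as for the members.

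**Figure D4:**
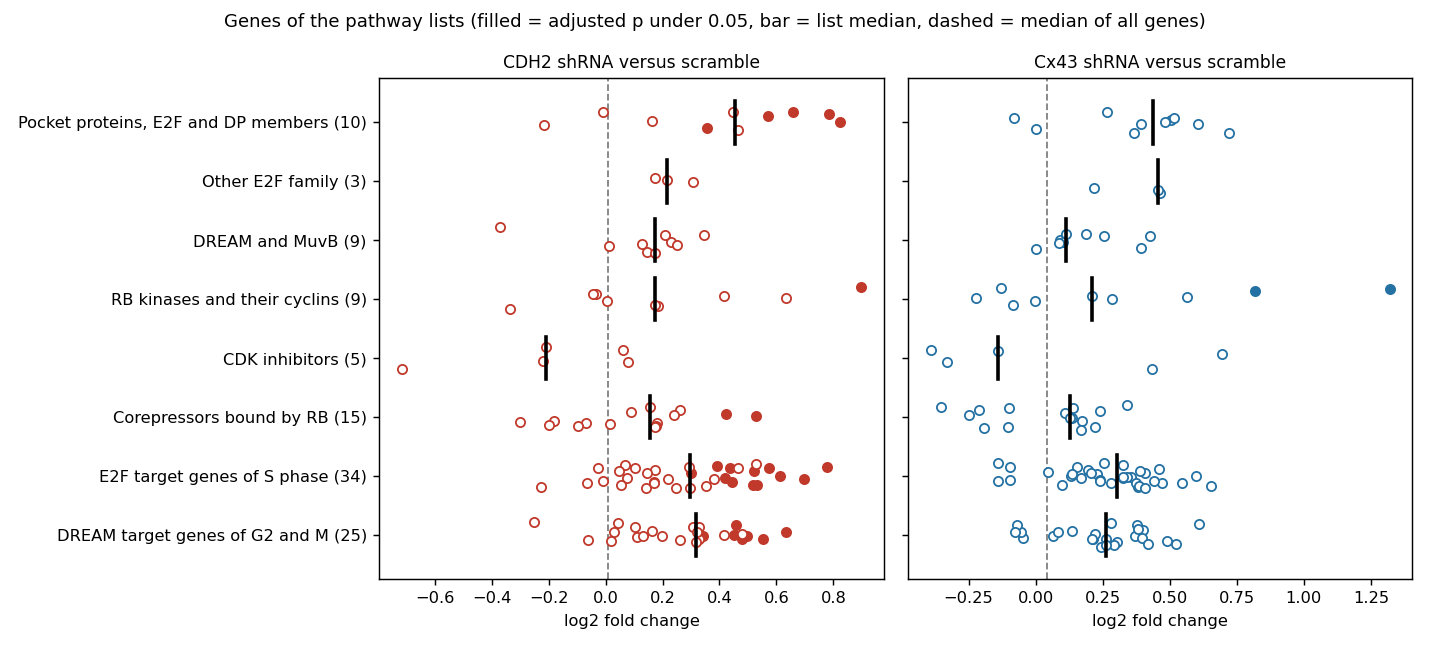
log2 fold change of each gene (x axis) in the members and the 7 pathway lists, for CDH2 shRNA and Cx43 shRNA versus scramble; filled points have an adjusted p under 0.05, black bars are list medians and the dashed line the median of all genes; the panels have their own x ranges. With CDH2 shRNA the 12 filled S phase targets and 7 filled G2 and mitosis targets lie to the right of 0, and with Cx43 shRNA only CCNE2 and CCND2 are filled.

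Across the 8 libraries, as a description over points that share the authors' batch correction and the group differences, RB1 was most like E2F3 (Pearson's r = 0.948) and RBL1 (0.938) among the members and least like E2F1 (-0.829). Among all genes, those most like RB1 were MORC3, TRMT1L and ZBTB34 (r of at least 0.999 for each, to 3 digits), but 1107 genes reached an r of 0.9 with RB1. For E2F1 they were RARS, RPL17 and SNX22, and 626 genes reached 0.9. After groups and replicate numbers were removed, the values varied in only 2 directions, so many genes share a pattern.

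The libraries were checked for identity. All 7 markers of mesenchymal breast cancer cells were present, with a mean of 8.37 to 8.56 in each library. With CDH2 shRNA 4 of the 7 were higher and 3 lower than with scramble. Only LGALS1 was called, and it was lower (-0.65, adjusted p = 0.0335). Of 6 luminal markers EPCAM alone was in the files (summed level 3.62 to 3.88 CPM with CDH2 shRNA, 5.60 to 5.73 with Cx43 shRNA and 5.03 to 5.30 with scramble), and ESR1, PGR, GATA3, FOXA1 and CDH1 were not analysed here. EPCAM fell with CDH2 shRNA (-0.37, adjusted p = 0.0349). Of 6 leukocyte markers ITGAM and CD68 were present, summing to 22.9 to 23.6 CPM with scramble, 23.8 to 26.1 with CDH2 shRNA and 16.8 to 19.0 with Cx43 shRNA, and neither was called. Of 6 fibroblast markers PDGFRB and COL1A1 were present, summing to 53.7 to 66.3 CPM with scramble, 40.4 to 52.6 with CDH2 shRNA and 29.6 to 40.2 with Cx43 shRNA, with no overlap between groups. PDGFRB was lower with CDH2 shRNA (-0.63, adjusted p = 0.0442), and its difference with Cx43 shRNA was -0.72 (adjusted p = 0.103). COL1A1 was not called, with a difference of 0.16 (adjusted p = 0.692) with CDH2 shRNA and -0.92 (adjusted p = 0.173) with Cx43 shRNA. The other leukocyte and fibroblast markers were not analysed here. Transcripts of the 13 mitochondrial protein-coding genes took 0.594 to 1.01% of the CPM in scramble libraries and 1.16 to 2.36% in knockdown libraries. Their share was thus higher in both knockdowns. All 13 genes had higher means than in scramble, with a median difference of 1.06 with CDH2 shRNA and 1.10 with Cx43 shRNA. None was called in either with the block. Without it 8 were called with CDH2 shRNA, beside 43.3% of all genes, and 4 with Cx43 shRNA, beside 24.3%. Every library also lay above scramble for 8 members with Cx43 shRNA, beside 31.4% of all genes, and for 6 with CDH2 shRNA, beside 27.1%. The part of these markers and of the mitochondrial share in the result was not tested. Because no counts were given, sequencing depth is unknown, and precision was judged from the spread between replicates.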

How the data were processed

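RNA-Seq values of 8 libraries of sorted MDA-MB-231 CSCs were used (scramble shRNA, n = 3; CDH2 shRNA, n = 3; Cx43 shRNA, n = 2), grouped by their labels. According to the methods, the authors aligned reads to hg38 in Partek Flow (STAR 2.6.1 in the submitters' notes), quantified them by expectation maximization, removed a low-quality sample, normalized to log CPM + 1, removed a batch effect among the replicates of sequencing and filtered out low genes. As deposited, values are log2(CPM + 1). Turned back, they sum to between 684411 and 727083 CPM per library, which fits base 2. A line without a gene name in each file was left out. No counts are given and no interval that needs depth was made.

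All 12939 genes were fitted with limma 3.58.1 in R 4.3.3 (lmFit, eBayes, two-sided) on all 8 libraries, with group and replicate number as a block. The residual degrees of freedom were 3, with 2.84 added by limma. After groups and replicate numbers the values vary in only 2 directions, so this count is too high and the p-values are too small. P-values were adjusted by Benjamini-Hochberg over all genes. Genes past an adjusted p of 0.05 were called, and the fold thresholds for each knockdown were those of the methods, with 1.5 for the direct comparison. The pairing comes from the replicate numbers of the labels. Deviations from group means sum to at most 1e-04 within each number, so they cannot show whether the libraries were paired. All 10 members were named, and at most 4 genes per pathway list, those of smallest adjusted p. The result of a gene that this rule names is not reported here. The members and lists were chosen with earlier results of these data known. Levels between genes are CPM per kb of GENCODE v44 exon, which 11888 genes (91.9%) have. Upstream windows are from RefSeq (GRCh38.p14). The fit was run on simulated data to check that mean estimates matched planted changes. The simulated noise was drawn independently for each library, unlike the values used here, so this does not check their p-values. The alternatives were no block, a pseudocount of 0.1 in place of 1, the 75% of genes with the highest means, median centring, removal of a length trend (spline with 4 degrees of freedom), residual degrees of freedom cut to 2, only the groups compared, and leaving out each library.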

Additional observations from a re-analysis of the deposited data

How the results depend on the processing

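Without the replicate block, 6 members were called with CDH2 shRNA, 5 with Cx43 shRNA (2 with the fold threshold) and 2 in the direct comparison, against 5, 0 and 0 with it. The added members were RB1 with CDH2 shRNA, RBL1, E2F3, E2F7, E2F8 and TFDP1 with Cx43 shRNA, and E2F7 and TFDP1 in the direct comparison. The fit without the block counts 5 residual degrees of freedom and the fit with it 3, although the values vary in only 2 directions. The p-values of both are thus too small. With the residual degrees of freedom cut to 2, the number of directions in which the values vary, 3 members were called with CDH2 shRNA (E2F3, E2F7 and E2F8), beside 2.29% of all genes. A fit of only the 2 groups compared called 0 with CDH2 shRNA, also with the fold threshold, and 7 with Cx43 shRNA (2 with the fold threshold), beside 0% and 21.7% of all genes. With Cx43 shRNA, a pseudocount of 0.1 called 1 member (E2F8) and removal of the length trend 2 (E2F8 and TFDP1), with the same counts under the fold threshold. When a library was left out, the members called ranged from 0 to 7 with CDH2 shRNA (0 to 3 with the fold threshold), from 0 to 6 with Cx43 shRNA (0 to 2 with the fold threshold) and from 0 to 1 in the direct comparison, while the share of all genes called ranged from 0 to 41%, from 0 to 16.5% and from 0 to 16.5%. The highest of these came without CDH2 shRNA replicate 3 or scramble replicate 3, which leave a single library in replicate 3 and so give the same fit. Without scramble replicate 2, 3 members were called with CDH2 shRNA and 2 with Cx43 shRNA. Differences near 0 changed sign when a library was left out. With CDH2 shRNA TFDP2 ranged from -0.040 to 0.013. With Cx43 shRNA E2F1 ranged from -0.26 to 0.13 and TFDP2 from -0.047 to 0.049. In the direct comparison RB1 ranged from -0.022 to 0.18, RBL1 from -0.14 to 0.16, RBL2 from -0.45 to 0.13, E2F1 from -0.32 to 0.045, E2F4 from -0.23 to 0.032 and TFDP2 from -0.059 to 0.037. TFDP2 with Cx43 shRNA was -0.014 after median centring and -0.014 after removal of the length trend, and in the direct comparison 0.0034 after median centring. RBL2 in the direct comparison was 0.13 in a fit of only the 2 groups. The cause of these changes was not tested, except that leaving out libraries or groups also leaves fewer residual degrees of freedom. Depth is unknown, so what it limits could not be given.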
